A study of Mus musculus with 170 samples.

Results

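The transcripts of 9 genes that form and control the hypoxia-inducible factors (HIFs) were examined in single cells of the E9.5 mouse heart ventricle. They are the HIF-alpha subunits Hif1a, Epas1 and Hif3a, the common partner Arnt, the prolyl hydroxylases Egln1, Egln2 and Egln3, the ubiquitin ligase subunit Vhl and the asparagine hydroxylase Hif1an. The genes were chosen by name as the subunits and oxygen sensors of the pathway, and all 9 were found among the 40549 rows of the expression table. Control cells, labelled wild type, came from C57BL/6 embryos with the genotype Dgcr8 loxP/loxP; Rosa26 mT/mG/+, which carried no Cre. Cells of the conditional knockout (cKO), labelled Mesp1Cre/+; Dgcr8-/-, came from embryos of the same strain and age that carried Mesp1 Cre/+ beside the floxed Dgcr8 alleles and the Rosa26 reporter. In these, Cre made from the Mesp1 locus removes Dgcr8, a part of the microprocessor that starts microRNA maturation, from early mesoderm that builds the heart and its vessels. Floxed Dgcr8 and the membrane reporter were thus shared by both genotypes, and Cre, with 1 Mesp1 allele replaced by it, was present only in the cKO. Ventricles were dissociated with enzymes, cells were picked by hand, and full-length cDNA was sequenced in 2 batches. The study had left out cells whose reporter transcripts did not match their genotype. Of the 143 cells in the table, 74 were control (35 from batch 1, 39 from batch 2) and 69 were cKO (35 and 34).

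HIF is a dimer of an oxygen-regulated alpha subunit and the constitutive subunit ARNT. When oxygen is plentiful, the prolyl hydroxylases encoded by the Egln genes mark the alpha subunit for VHL, which directs it to the proteasome, and the asparagine hydroxylase FIH, encoded by Hif1an, blocks its contact with coactivators. HIF-alpha abundance is therefore set largely at the protein level, and a transcript level is not a measure of HIF activity. Egln1 and Egln3 are themselves known target genes of HIF, and the pathway is needed for normal heart and vessel development.

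In the GRCm38 assembly (mm10), the genes for the alpha subunits lie on chromosome 12 (Hif1a, 73901375 to 73947530), chromosome 17 (Epas1, 86753700 to 86833410) and chromosome 7 (Hif3a, 17031507 to 17062427). Arnt is on chromosome 3 (95434388 to 95497240), Vhl on chromosome 6 (113623959 to 113631633) and Hif1an on chromosome 19 (44562850 to 44576274). The hydroxylase genes lie on chromosome 8 (Egln1, 124908587 to 124949324), chromosome 7 (Egln2, 27158658 to 27166802) and chromosome 12 (Egln3, 54178981 to 54203860). In the GENCODE M21 annotation, Hif1a is overlapped on its own strand by 9878 bases of another locus, Gm49321, and over its whole length by an antisense gene, Gm15283, so some reads assigned to Hif1a may be uncertain because the protocol does not keep strand. The stretches just upstream of Egln1 and Egln3 are shown because these were the members with the largest differences between the genotypes. They are RefSeq promoter sequence (GRCm38.p6), read on the minus strand and ending before the first annotated transcribed base. Capitals mark the core of the HIF-binding motif, spelled ACGTG or GCGTG and searched on both strands. The Egln1 window holds another match within the annotated gene, which is not shown.
Egln1, chr8:124949325-124949504: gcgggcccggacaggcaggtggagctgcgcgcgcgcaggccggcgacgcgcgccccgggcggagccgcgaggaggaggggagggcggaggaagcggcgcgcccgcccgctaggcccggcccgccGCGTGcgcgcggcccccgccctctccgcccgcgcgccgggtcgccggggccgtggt
Egln3, chr12:54203875-54204124: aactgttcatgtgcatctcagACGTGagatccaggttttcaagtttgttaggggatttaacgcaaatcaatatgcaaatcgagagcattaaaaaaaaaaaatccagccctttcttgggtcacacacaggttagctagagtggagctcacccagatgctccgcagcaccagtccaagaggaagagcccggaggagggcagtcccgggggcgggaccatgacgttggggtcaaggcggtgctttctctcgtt
In windows from 250 bases before to 50 bases after the RefSeq start, 8 of the 9 genes had an entry and 6 of those 8 held the motif, namely Hif1a, Hif3a, Arnt, Egln1, Egln2 and Egln3. Over all 32851 promoter windows of 300 bases, 43.8% held it, and 86% of the bases in the Egln1 window were G or C. Since a short motif occurs often in such sequence, a match is a description of the letters and not a binding site. Because the cKO lacks a microRNA-processing factor, the mature microRNA miR-541-5p is shown with its seed (bases 2 to 8) in capitals, next to the match found in the 3' untranslated region of Hif3a. 
miR-541-5p, chr12:109742422-109742446: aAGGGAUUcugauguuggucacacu
Hif3a site: ttaagatcctaaAATCCCTgtggattc
Hif3a was the only one of the 9 members whose longest annotated 3' untranslated region (4361 bases) held this 7-base match, while 8.19% of 19735 genes held it. The share was not matched for length.

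Expression was given in TPM (transcripts scaled to a fixed total and corrected for length), with at least 996133 per cell, so sequencing depth was unknown, and the number of genes with TPM above 0 ran from 2063 to 14139 per control cell and from 4244 to 11044 per cKO cell. Clustering on 55 marker genes gave 91 cardiomyocyte-like (CM-like) cells, 26 control and 65 cKO, in which all 15 cardiomyocyte markers were raised over the remaining cells. The other 48 control cells were 22 endothelial-like, 14 epicardial-like (with 8 of 14 mesenchymal markers also raised), 5 erythroid-like and 7 of an unnamed cluster rich in mitochondrial transcripts, which also held the 4 remaining cKO cells. No cKO cell in the table was endothelial-, epicardial- or erythroid-like. By in situ hybridization, however, the study found the endocardial marker Nfatc1 and the endothelial marker Pecam1 in cKO hearts. It reports that cKO cardiomyocytes came apart more easily than control ones, so that more of them were picked as single cells. It also proposes that endocardial cells may have been damaged in dissociation. Neither point was tested here. Dgcr8, the targeted gene, reached a TPM of at least 1, here called detection, in 14 of 26 control and 21 of 65 cKO CM-like cells, and averaged 2.504 ± 2.91 in log2(TPM + 1), with the SD taken over cells, against 1.71 ± 2.48. The difference was −0.12 in batch 1 and −1.31 in batch 2. A gene-level value also counts transcripts of a recombined allele. Xist, from the inactive X chromosome, was detected in 62 of 65 cKO and 0 of 26 control CM-like cells (a count of 0 allows a share of up to 11.5%), while the Y-linked Ddx3y in 0 of 65 cKO (up to 4.62%) and 17 of 26 control CM-like cells. Genotype and these sex-linked transcripts cannot be told apart in any difference below. When cells were clustered on variable genes without markers or members, CM-like cells of the genotypes fell mainly in different clusters. Counting all cells of a cluster, 1 held 46 cKO cells and 1 control cell and was led by Cox4i2 and P4ha2. Another held 11 control cells and was led by Cited1 and Hand1, with 4 of 7 erythroid markers also raised. A mixed cluster led by Myl2 held 12 control and 15 cKO cells. Together these clusters held 9 control cells of batch 2, where only 7 were CM-like, so some of their control cells were not CM-like. The labels name no embryo, and whether a number in the cell titles marks an embryo, a plate or only a cell is not stated. Each genotype was therefore taken as 1 sample, no test was made, and SDs describe scatter across cells.

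Among CM-like cells, Egln1 and Egln3, the hydroxylases HIF is known to induce, were higher in the cKO in both batches. Egln1 averaged 1.74 ± 2.05 in control and 4.20 ± 2.51 in cKO cells, and Egln3 averaged 0.24 ± 0.93 and 2.24 ± 2.49 (mean log2(TPM + 1) ± SD, n = 26 and 65 cells). Hif1a, the most abundant member, averaged 5.91 ± 2.03 and 5.90 ± 1.53. These 2 of the 9 members were higher by at least 1 log2 unit in both batches, a rule that 3.57% of 14971 genes met, and 0 of the 9 were lower by that rule, which 2.44% of genes met. All 9 members passed the filter of TPM above 0 in more than 10 CM-like cells. The median difference of the members was 0.61, beside 0.09 over all genes, but it was 1.02 in batch 1 and 0.05 in batch 2, beside all-gene medians of 0.20 and −0.11. 5 of the 9 members were above 0 in both batches, as were 33.6% of all genes, and 0 members were below 0 in both. Detected genes moved with these batch differences: the median cKO CM-like cell had 9877 detected genes in batch 1 and 7786 in batch 2, and the median control CM-like cell 8458 and 9582. Their part in the members' differences was not tested. A range of 7000 to 11000 detected genes kept 56 of the 65 cKO and 23 of the 26 control CM-like cells, with 6 control cells in batch 2. It did not match the genotypes for detected genes. In these cells Egln1 was 2.58 and Egln3 2.12 higher in the cKO.

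**Figure D1:**
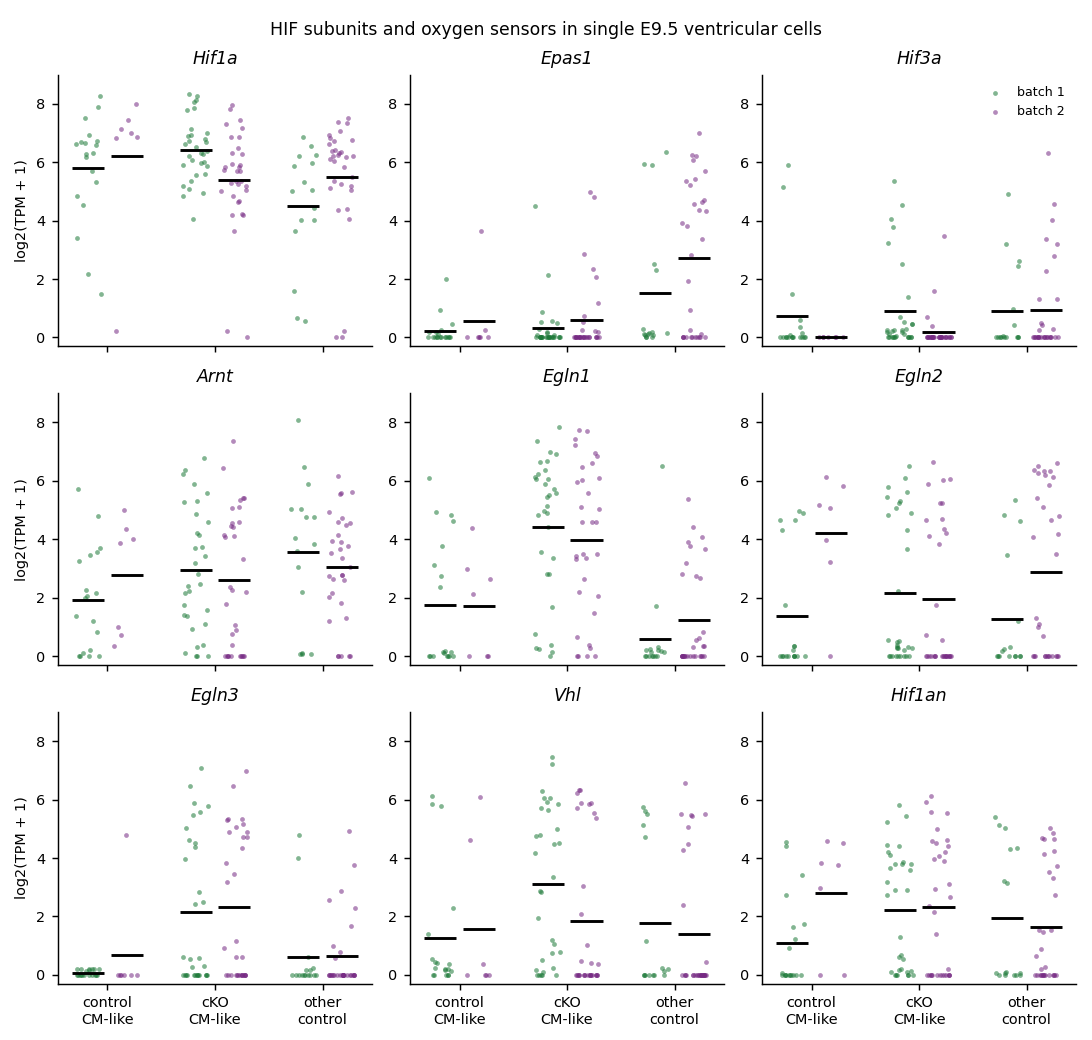
Each point is 1 cell and gives log2(TPM + 1) of the named gene, in 26 control CM-like, 65 cKO CM-like and 48 other control cells, coloured by sequencing batch, with black bars at the batch means. Egln1 and Egln3 have raised means in cKO CM-like cells of both batches, Epas1 is high in some of the other control cells, and all genes except Hif1a have many cells near 0.

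**Figure D2:**
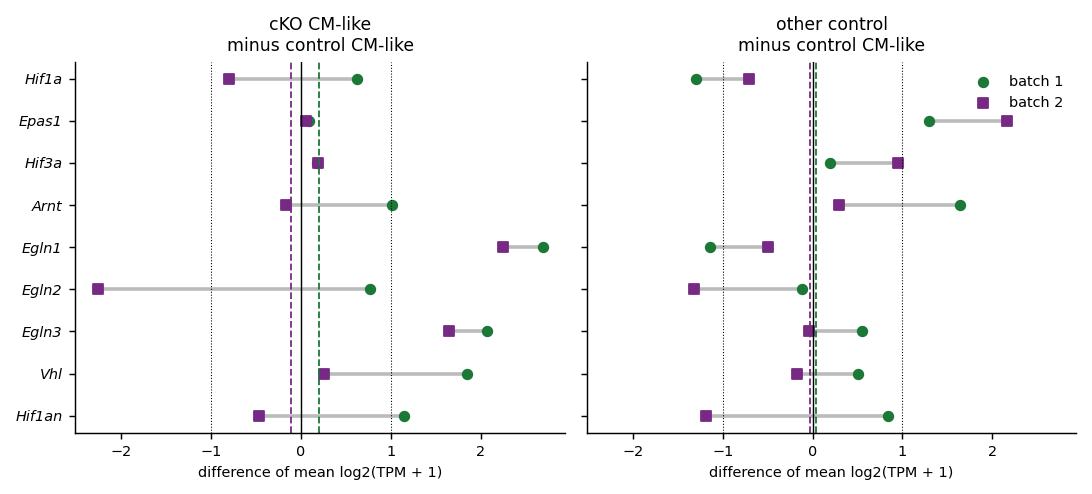
Difference of mean log2(TPM + 1) for each member in batch 1 (circles) and batch 2 (squares), for cKO against control CM-like cells (left) and other control against control CM-like cells (right). Dotted lines mark 1 log2 unit either way and dashed lines the all-gene median of each batch. Egln1 and Egln3 lie beyond 1 on the left in both batches, and Epas1 does so on the right.

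Among the alpha subunits, Hif1a, which encodes the broadly used HIF-1 alpha, was by far the most abundant in CM-like cells. It was detected in 25 of 26 control cells (96.2%, 95% interval 80.4 to 99.9%) and 63 of 65 cKO cells (96.9%, 89.3 to 99.6%). Its log2(TPM + 1) had a lowest value of 0.21, a median of 6.63 and a highest of 8.28 in control cells, and of 0, 5.94 and 8.34 in cKO cells. The ranges overlapped almost wholly, and 1 of 65 cKO cells exceeded the highest control cell. The sign of the small difference turned between batches, with 0.62 in batch 1 (5.80 in control and 6.42 in cKO) and −0.81 in batch 2 (6.21 and 5.40). Of the summed mean TPM of the alpha subunits, Hif1a made up 95.9% in control and 96.2% in cKO CM-like cells.

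Epas1, which encodes HIF-2 alpha and is best known from endothelial cells, was detected in 2 of 26 control (7.69%, 0.946 to 25.1%) and 8 of 65 cKO CM-like cells (12.3%, 5.47 to 22.8%). Its median was 0 in both, and the highest log2(TPM + 1) was 3.63 for control and 4.99 for cKO cells. The difference of means was 0.09 in batch 1 and 0.05 in batch 2. Endothelial markers were also low in CM-like cells, with a median summed TPM of 16.98 (range 2.00 to 229) in control and 36.6 (2.76 to 412) in cKO cells against 2384 in endothelial-like cells, with different batch medians (6.93 and 54.1 in control, 51.7 and 31.1 in cKO cells). Of the 13 markers, only Cdh5, a defining endothelial cadherin, stayed under a TPM of 1 in every CM-like cell of both genotypes, while Pecam1, an adhesion molecule of endothelial cells, was detected in 25 of 26 control and all 65 cKO cells. The part of such transcripts in the Epas1 values was not tested.

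Hif3a, whose products include inhibitory forms of the alpha subunit, was detected in 3 of 26 control (11.5%, 2.45 to 30.2%) and 9 of 65 cKO CM-like cells (13.8%, 6.53 to 24.7%). The highest log2(TPM + 1) was 5.89 in control and 5.36 in cKO cells, and the medians were 0. The mean difference was 0.18 in batch 1 and 0.19 in batch 2, but in batch 2 Hif3a was listed at 0 in all 7 control cells. Pooled over batches the difference was 0.01, and as a log2 ratio of mean TPM it was −0.71. In whole E9.5 hearts, the study listed Hif3a among predicted miR-541-5p targets that were raised in the cKO. The detection share of each genotype lay within the interval of the other, which covers the counting of cells only.

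Arnt, the partner that all alpha subunits need to bind DNA, was detected in 17 of 26 control (65.4%, 44.3 to 82.8%) and 45 of 65 cKO CM-like cells (69.2%, 56.6 to 80.1%). Its lowest, median and highest log2(TPM + 1) were 0, 2.03 and 5.71 in control and 0, 2.41 and 7.38 in cKO cells. The ranges overlapped, with 6 cKO cells above the highest control cell. The means differed by 1.02 in batch 1 and −0.17 in batch 2. Hif1a and Arnt were detected together in 17 of 26 control and 44 of 65 cKO cells.

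Egln1, which encodes PHD2, the main oxygen sensor that marks HIF-1 alpha, showed the largest difference of the members in mean log2(TPM + 1). By the log2 ratio of mean TPM the order turned, with 2.44 for Egln1 and 3.14 for Egln3. Its lowest, median and highest log2(TPM + 1) were 0, 0.17 and 6.11 in control and 0, 4.91 and 7.86 in cKO CM-like cells. The control range lay wholly inside the cKO range, while 17 of 65 cKO cells exceeded the highest control cell and 45 exceeded the upper quartile of control cells (3.10). The difference of means was 2.69 in batch 1 (1.74 and 4.43) and 2.25 in batch 2 (1.73 and 3.98), and 0.601% of genes had a larger pooled difference. Egln1 was detected in 12 of 26 control (46.2%, 26.6 to 66.6%) and 52 of 65 cKO cells (80%, 68.2 to 88.9%). The intervals did not overlap, but they cover the counting of cells only. The share of all genes with such a gap was not computed. Over cells with a detected level alone, the mean was 3.72 ± 1.25 in 12 control and 5.19 ± 1.71 in 52 cKO cells. Both the share of cells and the level in positive cells were therefore higher in the cKO.

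Egln3, which encodes PHD3, reached a TPM of 1 in few control CM-like cells. It was detected in 1 of 26 of them (3.85%, 0.0973 to 19.6%) and in 30 of 65 cKO cells (46.2%, 33.7 to 58.97%). The intervals did not overlap, with the same limits as for Egln1. The lowest, median and highest log2(TPM + 1) were 0, 0 and 4.78 in control and 0, 0.61 and 7.09 in cKO cells. Batch 1 had 0 positive control cells of 19 (a count that still permits 15.8%) and 14 positive cKO cells of 32, and batch 2 had 1 of 7 and 16 of 33. The batch differences were 2.07 and 1.65. At any TPM above 0 the shares were closer, at 34.6% of control and 58.5% of cKO cells. The mean over cells with a detected level was 4.71 ± 1.37 in the 30 cKO cells, beside 4.78 in the single positive control cell, so the level in positive cells cannot be compared between the genotypes. Egln1 and Egln3 were detected together in 26 of 65 cKO and 0 of 26 control cells (up to 11.5%).

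Egln2, which encodes PHD1, differed in opposite directions in the batches, by 0.77 in batch 1 (1.38 in control and 2.15 in cKO) and by −2.27 in batch 2 (4.21 and 1.94). The batch 2 control mean rests on 7 cells, of which 6 were positive, while in batch 1 6 of 19 control cells were. In the cKO the shares were 13 of 32 and 13 of 33. Pooled, 12 of 26 control (46.2%) and 26 of 65 cKO cells (40%, 28.04 to 52.9%) were positive, and the lowest, median and highest values were 0, 0.34 and 6.13 in control and 0, 0.31 and 6.64 in cKO cells. Egln2 differed more between the control batches (1.38 and 4.21) than the genotypes did when pooled.

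The makeup of the prolyl hydroxylase transcripts differed accordingly. Their summed mean TPM was 22.7 per control and 81.8 per cKO CM-like cell. In cKO cells Egln1 contributed 60.5%, Egln2 18.6% and Egln3 20.97%, with nearly the same shares in both batches (60.5, 18.9 and 20.7% in batch 1, and 60.5, 18.3 and 21.3% in batch 2). In control cells Egln1 contributed 57.8% in batch 1 and 12.7% in batch 2, Egln2 41.8% and 77.8%, and Egln3 0.357% and 9.54%. Cells without any detected Egln transcript numbered 8 of 26 in control (30.8%) and 4 of 65 in the cKO (6.15%). In batch 1 these were 8 of 19 control and 2 of 32 cKO cells, but in batch 2 they were 0 of 7 and 2 of 33. All 3 were detected together in 0 control and 13 cKO CM-like cells. TPM divides by transcript length, so these shares compare levels per length.

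Vhl, the recognition subunit of the ligase that binds hydroxylated HIF-alpha, was detected in 7 of 26 control (26.9%, 11.6 to 47.8%) and 33 of 65 cKO CM-like cells (50.8%, 38.1 to 63.4%). Its lowest, median and highest log2(TPM + 1) were 0, 0.22 and 6.14 in control and 0, 1.02 and 7.48 in cKO cells. The intervals overlapped, and so did the values, with 6 cKO cells above the highest control cell. The difference was 1.84 in batch 1 and 0.25 in batch 2, so it passed 1 log2 unit in batch 1 alone. It depended on the cells used, reaching 2.00 in batch 1 and 1.38 in batch 2 among cells with 7000 to 11000 detected genes. Counting any TPM above 0 as detection, 65.4% of control and 64.6% of cKO cells were positive.

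Hif1an, which encodes FIH, was detected in 12 of 26 control (46.2%, 26.6 to 66.6%) and 37 of 65 cKO CM-like cells (56.9%, 44.04 to 69.2%). Its lowest, median and highest log2(TPM + 1) were 0, 0.49 and 4.60 in control and 0, 2.66 and 6.13 in cKO cells, and 9 cKO cells lay above the highest control cell. The difference was 1.15 in batch 1 and −0.47 in batch 2. Polr2a and Tbp, which encode general transcription proteins that every cell uses, were detected in 57.7 and 61.5% of control and 73.8 and 44.6% of cKO CM-like cells. Both were picked from a longer list of such genes after their values were seen. A share near theirs is therefore only what some genes used by every cell can show in this table.

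**Figure D3:**
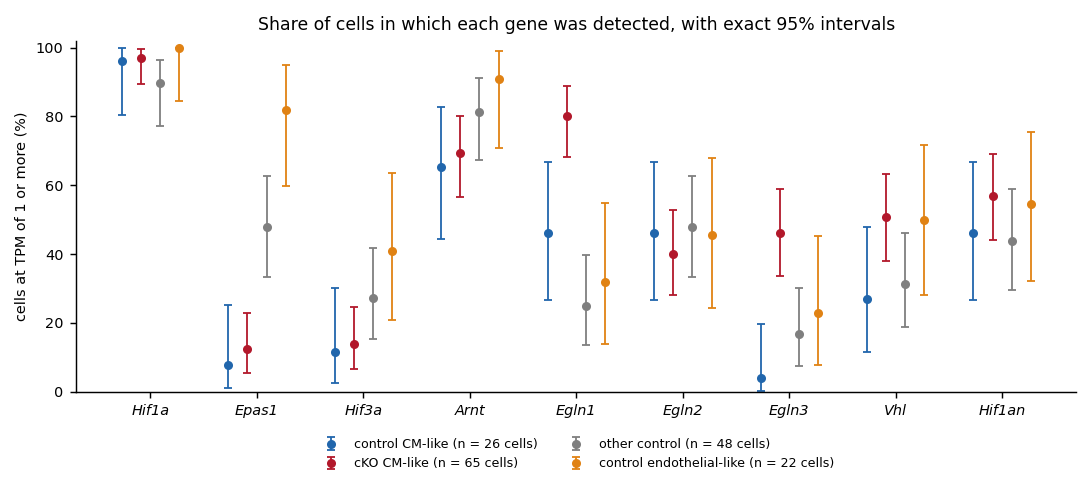
Share of cells with a TPM of at least 1 for each member, with exact 95% intervals for counting error, in control CM-like (26), cKO CM-like (65), other control (48) and control endothelial-like cells (22). The cKO interval lies above the control interval for Egln1 and Egln3, and the share of all genes with such a gap was not computed. Epas1 reaches 81.8% in endothelial-like cells.

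The other control cells were compared with control CM-like cells to see which members differ between heart cell classes of 1 genotype. Epas1 was the member that set them apart, with a mean of 2.32 ± 2.54 in 48 other control cells and 0.31 ± 0.80 in 26 control CM-like cells. It was higher by 1.30 in batch 1 and 2.16 in batch 2. It was 1 of 9 members higher by at least 1 log2 unit in both batches (3.7% of 14517 genes), and 0 were lower (5.98% of genes). Within the other control cells, Epas1 averaged 4.18 ± 2.29 in 22 endothelial-like cells, 1.26 ± 1.82 in 14 epicardial-like cells and 0.22 ± 0.41 in 5 erythroid-like cells. It was detected in 18 of 22 endothelial-like cells (81.8%, 59.7 to 94.8%), in 5 of 14 epicardial-like cells (35.7%, 12.8 to 64.9%) and in 0 of 5 erythroid-like cells. Its lowest, median and highest values in endothelial-like cells were 0, 4.89 and 7.00, so most of these cells exceeded the highest control CM-like cell (3.63). There Epas1 made up 33.5% of the summed alpha-subunit TPM, Hif1a 60.5% and Hif3a 5.98%. Epas1 and Arnt were detected together in 17 of 22 endothelial-like and 2 of 26 control CM-like cells.

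Pooled over batches, the remaining members differed less between other control and control CM-like cells than Epas1 did, but not within each batch. Arnt was higher in other control cells by 1.64 in batch 1 and 0.29 in batch 2, and was detected in 14 of 14 epicardial-like and 20 of 22 endothelial-like cells. Hif3a was detected in 9 of 22 endothelial-like cells (40.9%, 20.7 to 63.6%) against 3 of 26 control CM-like cells. Hif1a was lower in other control cells, with differences of −1.30 in batch 1 and −0.71 in batch 2, but in endothelial-like (5.85 ± 0.88) and epicardial-like cells (5.98 ± 1.08) its mean was close to that of control CM-like cells, and the 7 control cells of the unnamed mitochondrial cluster averaged 1.64. Egln2 differed by −0.11 in batch 1 and −1.315 in batch 2, and Hif1an by 0.84 and −1.18. Egln1 differed by −1.14 and −0.49, and Egln3 was detected in 8 of 48 other control cells (16.7%, 7.48 to 30.2%), at a mean of 0.63. No control class therefore reached the Egln1 or Egln3 mean of cKO CM-like cells.

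When all 69 cKO cells were set against all 74 control cells, whatever their class, Egln1 (2.74 higher) and Egln3 (1.73 higher) were again the 2 members higher by 1 log2 unit in both batches (3.89% of 16659 genes), and 0 were lower (2.35%). Epas1 was lower in the cKO, with differences of −0.51 in batch 1 and −1.74 in batch 2, while among CM-like cells it differed by 0.15. The cKO cells included no endothelial-like cell, so cell class and genotype cannot be told apart in the comparison of all cells.

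The rest of the pathway was described in CM-like cells through lists whose medians stand beside the all-gene median of 0.09. Of 30 established HIF target genes, 27 passed the filter. In the cKO 11 of these were higher by at least 1 log2 unit in both batches and 0 were lower. Over all 14971 genes the shares were 3.57% and 2.44%. The median of the target genes was 1.47 (1.58 in batch 1 and 0.99 in batch 2, beside all-gene medians of 0.20 and −0.11). The highest was P4ha2, a collagen prolyl hydroxylase (2.56 ± 2.15 in control and 7.72 ± 1.82 in cKO cells), and the lowest Pdk1, which limits entry of pyruvate into mitochondria (5.41 ± 1.71 and 5.93 ± 1.80). After P4ha2 the largest differences among the 11 were those of Adm, the vasodilator adrenomedullin (3.88), Ero1l, an oxidase of the endoplasmic reticulum (3.36), Plod2, a lysyl hydroxylase of collagen (2.93), the angiogenic factor Vegfa (2.74) and P4ha1, a further collagen prolyl hydroxylase (2.36). This list was chosen with earlier results of these cells known, so its direction is not independent evidence. None of the 4 VHL ligase partners met the rule in either direction (median −0.21, from −0.42 for Rbx1 to 0.08 for Tceb1). The same held for 12 of 13 regulators of HIF-alpha stability that passed the filter (median 0.26, from −0.88 for Siah1b to 1.23 for Wsb1), for 8 of 12 relatives with bHLH-PAS domains (0.30, from 0.01 for Sim1 to 0.88 for Arntl) and for 4 further oxygen-dependent dioxygenases (0.35, from −0.87 for Ado to 1.14 for the X-linked Kdm6a). Among 6 of 7 coactivators and competitors that passed (median 0.40), Cited1, which competes for a shared coactivator, was the only one past the rule, with 6.58 ± 3.75 in control and 3.14 ± 3.20 in cKO cells, and Cited2 was the highest at 1.06.

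**Figure D4:**
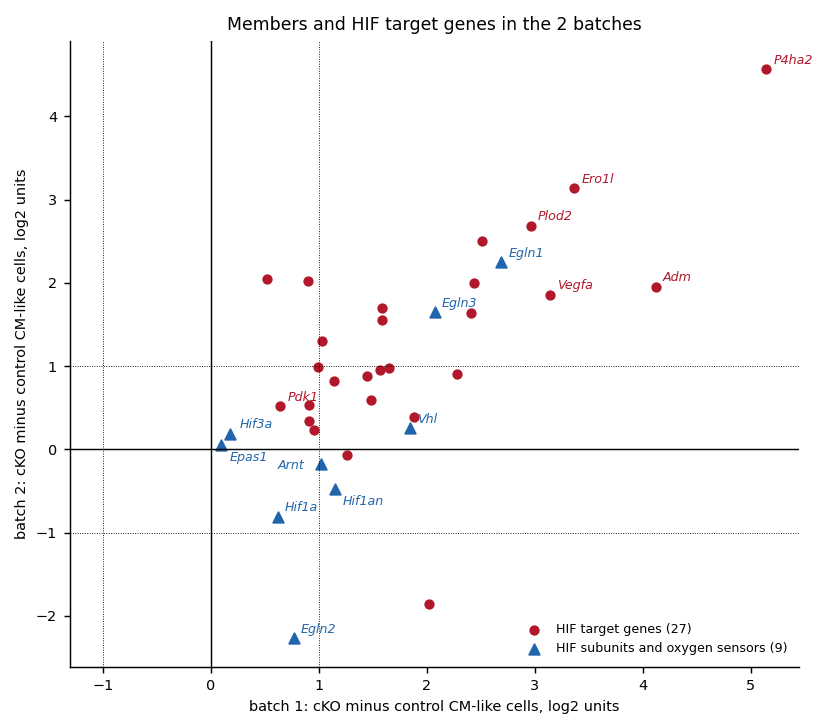
Difference of mean log2(TPM + 1) between cKO and control CM-like cells in batch 1 (x axis) and batch 2 (y axis), for the 9 members (triangles) and 27 HIF target genes (circles), with dotted lines at 1 log2 unit. Egln1 and Egln3 lie in the upper right with P4ha2, Ero1l, Plod2, Vegfa and Adm, while Hif1a, Arnt and Hif1an lie below 0 in batch 2 and Egln2 lies at −2.27, and 2 of the targets lie below 0 in batch 2.

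Immediate-early and stress genes known to respond to dissociation were examined beside these values, since the cells were released by enzymes. Of 9 genes that passed, Jun (1.81 pooled) and Atf3 (3.03 ± 2.99 in control, 5.53 ± 3.05 in cKO) were higher by the rule and Junb (−1.20) was lower. Over all genes, 3.57% were higher and 2.44% lower by this rule. The list median was 0.94 (−0.35 in batch 1 and 1.39 in batch 2), and the lowest gene of the list was Egr1 (−1.37). Mitochondrial transcripts made up a median of 6.27% of TPM in control and 2.90% in cKO CM-like cells. The part of dissociation or mitochondrial content in the members' differences was not tested. A limit of 10% mitochondrial TPM, chosen after seeing the data, kept 61 of 65 cKO and 22 of 26 control CM-like cells. Both medians already lay under it, so it did not match the genotypes for mitochondrial content. In these cells Egln1 was 2.82 and Egln3 2.08 higher in the cKO. Summed markers of other classes had higher pooled medians in cKO CM-like cells, but the direction turned between batches for all but the mesenchymal list. The 14 mesenchymal markers had a median summed TPM of 13.6 (range 0.154 to 142) in cKO and 2.23 (0.0445 to 28.4) in control cells, with 10.7 against 1.62 in batch 1 and 14.7 against 12.1 in batch 2. Of these, 3 were under a TPM of 1 in every CM-like cell (Postn, Lum and Dcn), and the largest difference was that of Papss2 (1.06), detected in 21 of 65 cKO and 3 of 26 control cells. The 6 epicardial markers had 34.8 (0 to 355) in cKO and 15.2 (0.306 to 132) in control cells, with 61.9 against 4.46 in batch 1 and 28.9 against 37.05 in batch 2. The 7 erythroid markers had 6.54 (0 to 483) in cKO and 2.26 (0 to 357) in control cells, with 2.23 against 0.776 in batch 1 and 18.6 against 75.7 in batch 2. The part of these transcripts in the members' differences was not tested. Within the CM-like class, 3 of 15 cardiomyocyte markers were lower in the cKO by the rule and 0 were higher, beside 2.44% and 3.57% of all genes. Those lower were the myosin light chain genes Myl2 (12.8 ± 0.813 in control, 9.16 ± 3.99 in cKO) and Myl3 (12.2 ± 0.903 and 9.80 ± 2.64) and the troponin gene Tnni3 (10.3 ± 1.09 and 8.06 ± 3.42). In the mixed cluster led by Myl2, found without markers, Egln1 differed by 2.51 and Egln3 by 1.70 between 15 cKO and 12 control cells, nearly all of batch 1.

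Across the 65 cKO CM-like cells, the members hardly varied together. With batch means subtracted, Pearson's r of the 36 pairs ran from −0.22 (Hif1a with Arnt) to 0.26 (Arnt with Egln3), with a median of 0.04. Egln1 and Egln3 had r = 0.22 and Spearman's rho = 0.24. These points are cells that share library preparation and differ in detected genes, so the values are descriptions, and correlations this weak in sparse data are no finding. The genes most like a member, among 5876 genes detected in most of these cells, were named only where r reached 0.5. For Egln1 they were Vegfa (r = 0.63), Bri3 (0.58) and Jph2 (0.55), a gene of the junctions between cell membrane and sarcoplasmic reticulum, and for Hif1a they included Mrpl42 (0.57) and Clic1 (0.55). Arnt had Ythdf3 (0.53) and Hif1an had Sec24b (0.53), and no gene reached 0.5 for Vhl. Being the highest of 5876 values with no reference beside them, these r describe only these cells. Over the 27 HIF target genes, r with Egln1 ran from −0.34 to 0.63, and the next after Vegfa was P4ha2 (0.39). Against the mean of the 27 HIF target genes in each cell, which ran from 2.25 to 7.72 in cKO cells, r ran from 0.05 (Vhl) to 0.37 (Egln3), with 0.29 for Hif1an, 0.26 for Arnt, 0.25 for Hif1a and 0.23 for Egln1. After removal of detected genes it was 0.32 for Egln3, 0.12 for Hif1an, 0.18 for Arnt, 0.08 for Hif1a and 0.32 for Egln1. In the 26 control CM-like cells r ran from −0.29 (Vhl, with Egln1 also at −0.29) to 0.71 (Hif1a). After removal of detected genes in these control cells it ran from −0.37 (Egln2) to 0.36 (Hif1a), with 0.10 for Vhl and −0.31 for Egln1.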

How the data were processed

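Single ventricular cells of E9.5 C57BL/6 hearts were profiled by Smart-seq2, with Tn5 libraries and paired-end reads. The deposited values are TPM per gene, quantified by the authors with Salmon on mm10 plus reporter sequences. The Salmon version and the annotation release were not given in the sources used here. Cells were selected by the authors for mapping rate, and those with a reporter pattern of the wrong genotype were dropped. TPM keeps no read depth, and no molecular identifiers were used, so intervals cover counting error of cells only. Of 170 labelled samples, 143 had a column, matched by title, and 27 were not analysed here. All 143 cells were kept. Doublets were not searched for, since cells were picked by hand.

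Values were transformed to log2(TPM + 1), which understates changes at low levels. Cells were clustered by Ward linkage on z-scored values of 55 markers into 5 clusters, each named for the class with the highest proportion of its markers raised by 1 log2 unit, provided 3 or more were. Differences of mean values were taken, pooled and per batch, for genes found at TPM above 0 in over 10 compared cells, and a gene was called higher or lower at 1 log2 unit in both batches. Because the labels name no embryo, cells were not replicates and no test was run. The study's rank-sum test over cells was therefore not used. Shares have exact Clopper-Pearson 95% intervals, and a share of 0 has a limit of 3 cells of the total. Named genes were the members, the highest and lowest gene of each list, up to 6 called genes per list and direction, and up to 3 genes with r of at least 0.5 to a member. A gene that met this rule is not reported here. Dgcr8, Xist and Ddx3y were label checks. Hif1a neighbours, Polr2a, Tbp, the endothelial and mesenchymal markers and the genes leading the marker-free clusters were named after their values were seen. Alternatives covered the pseudocount, filter, detection limit, normalization, batch, depth range and clustering. The members and lists were chosen with earlier results of these data known. Positions are from GENCODE M21, and promoter and microRNA sequences from RefSeq (GRCm38.p6). The scripts ran on Python 3.11.15 with pandas 2.3.3 and scipy 1.17.1, and were tested on simulated data.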

Additional observations from a re-analysis of the deposited data

How the results depend on the processing

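The differences of the members in the 3 comparisons kept their sign in 262 of 297 recomputed values. Although 296 moved by less than the SD across cells, that SD was wide, so this count says little about stability. For Egln2 in CM-like cells the SD was 2.48 in cKO and 2.42 in control cells. Its move from −0.10 to −2.27 in batch 2 alone was therefore among the 296. Egln1 stayed higher in cKO than in control CM-like cells under all 14 alternatives, between 1.31 (pseudocount of 10) and 3.64 (pseudocount of 0.1). Egln3 stayed higher under 13 of 14, up to 3.27 (pseudocount of 0.1). It turned to −0.070 when only cells with the gene detected were averaged, an alternative that leaves 1 control cell. As a log2 ratio of mean TPM, Egln3 (3.14) exceeded Egln1 (2.44). With a pseudocount of 10, Egln1 was the 1 member higher in both batches among CM-like cells and among all cells, and 0 were higher in other control cells. When mean TPM was compared as a log2 ratio, or each cell was centred on its median, 1 member (Epas1) was lower in all cKO cells. With 4 clusters, 2 members (Epas1 and Arnt) were higher in other control cells. With clusters found without markers, 0 were higher and 1 (Hif1a) was lower. The cause of these changes was not tested, and the share of all genes that met the rule under each alternative was not computed. Epas1 in other control cells ranged from 0.88 to 3.56 above control CM-like cells. The signs of Hif1a (10 of 14 alternatives kept), Egln2 (8 of 14) and Hif3a (8 of 14) in CM-like cells depended on the setting, and the other members kept theirs in at least 12 of 14 apart from the case named for Egln3. The detection share of Vhl differed by −0.769 percentage points at any TPM above 0, and the median of the stability regulators was −0.56 in batch 2 alone. With 7000 to 11000 detected genes, or under 10% mitochondrial TPM, Vhl also met the rule, giving 3 members. The median of the HIF target genes ranged from 0.87 (pseudocount of 10) to 2.17 (pseudocount of 0.1). The restrictions to 1 marker-free cluster, to under 10% mitochondrial TPM and to detected cells were chosen after seeing the data, and the marker-free cluster had no control cell in batch 2. No paired analysis was possible because the labels name no embryo by which cells could be paired. The sources used here do not say what the numbers in the cell titles mark. Depth was unknown, and 26 control CM-like cells, 7 of them in batch 2, limited the precision of every comparison with them.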

Other observations

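In the unnamed cluster rich in mitochondrial transcripts, which held 4 cKO and 7 control cells, Hif1a was detected in 2 of the cKO and 3 of the control cells. Egln3 was detected in 1 of the 4 cKO cells, at a log2(TPM + 1) of 7.14, and in 0 of the 7 control cells. Egln1 was detected in 2 of the cKO cells, with a highest value of 1.87, and in 1 control cell, at 6.50. Epas1, Hif3a and Hif1an were detected in none of these 11 cells. The median number of detected genes was 5728 in the 7 control cells and 5491.5 in the 4 cKO cells.

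Across the 26 control CM-like cells, the level of Hif1a varied with the number of detected genes (Pearson's r = 0.75, Spearman's rho = 0.58, batch means subtracted), and that of Hif1an did so less (0.55 and 0.52). In the 65 cKO CM-like cells the values were 0.32 and 0.18 for Hif1a and 0.34 and 0.35 for Hif1an, and for Egln1 they were 0.02 and −0.10. These are descriptions over cells of shared libraries.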
